A study of Mus musculus with 10 samples.

Results

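The *Fam19a* genes, also named *Tafa*, encode a family of small secreted neurokines, and 5 of the 24453 genes in the count table belong to it, *Fam19a1* to *Fam19a5*. They were taken by their symbols, and the family itself was selected on results of the comparison of *Fezf2+ve* with *Fezf2−ve* IT-PNs in these same libraries. The values of its members are therefore given as a description of the libraries, with no p-value. From the fits over all genes they have log2 fold changes with standard errors and the number of members called, beside the share of all genes, and nothing is supported with these.

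The study profiled intratelencephalic projection neurons (IT-PNs), the cortical neurons that send axons to other parts of the cortex and to the striatum, from layer 5 of the mature primary motor cortex (M1). All cells came from male mice hemizygous for the (Zfp312-EGFP)CO61GsatMmnc transgene on a Swiss Webster background, in which GFP reports *Fezf2*, a transcription factor of deep-layer projection neurons. A retrograde tracer, the cholera toxin subunit CTB coupled to Alexa 647, was injected into the left M1 at postnatal day 23 to 25, and layer 5 of the right M1 was taken at postnatal day 28 to 32. Sorting of cells from each of 5 animals gave 1 library of *Fezf2+ve* IT-PNs, with GFP and tracer, and 1 library of *Fezf2−ve* IT-PNs, with the tracer alone, at mean yields that the labels give as 11280 and 2688 cells, the latter stated otherwise in the text of the study. The gate thus rests on a transgene and on uptake of the tracer, and the animals carried no other treatment.

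Reads on genes numbered 118134, 107643, 118069, 151591 and 203379 for *Fezf2+ve* IT-PNs of animals 1 to 5, and 167916, 89138, 168711, 211368 and 217738 for *Fezf2−ve* IT-PNs of the same animals. Depth thus overlapped between the types. Within animals the totals differed by -31211 reads on average (SD of the differences 32765), with the *Fezf2+ve* library lower in 4 of 5 animals. A two-sided exact permutation test of these differences gave p = 0.188, where 5 animals allow no p below 1 in 16. A difference in depth between the types is thus not excluded. Libraries held reads of 3990 to 7918 genes, and the gene with the most reads took 1.90 to 29.8% of a library, the most in *Fezf2+ve* library 1. At this depth 1 read is worth 4.59 to 11.2 CPM (counts per 1000000 reads on genes of the same library). A count of 0 still allows a level of up to 3 reads, which is 13.8 to 33.7 CPM. No molecular identifiers mark the reads, so such limits and all intervals given here cover counting error only.

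FAM19A proteins are short, carry a signal peptide and a cysteine-rich mature chain, and are made mainly in the nervous system. They are distantly related to CC chemokines. Several of them have been reported to bind neurexins, the presynaptic adhesion receptors, inside the secretory pathway, and others to act on G protein-coupled receptors. *Fam19a4* is known from low-threshold mechanoreceptors of the skin, where its product modulates pain.

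The members share a coding pattern that shows how far apart their sequences are. In each, the coding sequence was read from the GENCODE transcript with the longest one, and a window of 75 codons (225 bases) was placed from the first to the last cysteine codon that *Fam19a2* has. *Fam19a1* to *Fam19a4* have cysteine codons at the same 10 places of this window. *Fam19a5* has them at 8 of the 10 and lacks the adjacent pair at codons 9 and 10 of the window. The first 26 codons (78 bases) of each window, which lie within 1 exon in each gene, are shown 5′ to 3′ on the coding strand with the cysteine codons in capitals, because they hold this difference.
Fam19a1: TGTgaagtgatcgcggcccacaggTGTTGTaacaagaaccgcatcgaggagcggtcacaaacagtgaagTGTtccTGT
Fam19a2: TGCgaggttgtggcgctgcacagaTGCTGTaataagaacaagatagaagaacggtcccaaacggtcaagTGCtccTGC
Fam19a3: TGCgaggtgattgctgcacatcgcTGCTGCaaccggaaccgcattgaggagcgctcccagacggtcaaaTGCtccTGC
Fam19a4: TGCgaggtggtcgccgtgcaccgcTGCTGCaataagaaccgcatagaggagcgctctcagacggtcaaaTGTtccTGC
Fam19a5: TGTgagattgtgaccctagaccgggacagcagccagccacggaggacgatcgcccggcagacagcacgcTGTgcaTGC
These runs lie on GRCm38, which is mm10, at chr6:96523346-96523423 in exon 3 of *Fam19a1* (plus strand), chr10:123704382-123704459 in exon 4 of *Fam19a2* (plus strand) and chr3:104773092-104773169 in exon 5 of *Fam19a3* (minus strand). Those of *Fam19a4* and *Fam19a5* lie at chr6:96863812-96863889 in exon 4 (minus strand) and at chr15:87681500-87681577 in exon 2 (plus strand).

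Over the whole window the members were clearly distinct in sequence. *Fam19a3* and *Fam19a4* were the most alike, with 171 of 225 bases identical (76.0%). *Fam19a2* matched *Fam19a4* at 74.7% of the bases and *Fam19a1* at 69.3%. *Fam19a5* stood apart, with 51.6 to 58.2% identity to the other members. The longest stretch that any pair of members had in common across their annotated transcripts was 21 bases (*Fam19a1* and *Fam19a3*), shorter than the shortest read the authors kept. For *Fam19a2* the longest such stretch was 14 bases, so a read within its transcripts does not match another member in full.

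The genes differ more in length than in coding size. Their coding sequences span 396 to 405 bases, whereas the annotated loci span 544 kb for *Fam19a1* (chromosome 6, 96113154 to 96657198, plus strand), 477 kb for *Fam19a2* (chromosome 10, 123263996 to 123741204, plus strand) and 14.4 kb for *Fam19a3* (chromosome 3, 104767406 to 104781840, minus strand). *Fam19a4* spans 229 kb (chromosome 6, 96831203 to 97060413, minus strand) and *Fam19a5* 215 kb (chromosome 15, 87544299 to 87759364, plus strand). Exons make up 0.983% of the *Fam19a2* locus and 31.1% of that of *Fam19a3*. Whether reads fell in exons or introns of a member was not tested, since the table holds 1 count per gene. The gene models used for counting are not among the files. The study reports more reads in introns than in exons for both types. In each library, reads on genes nevertheless came near or above the number of reads that the study mapped to mm10. Reads in introns thus appear to have been counted, but their share for a member is not known. Levels per kb are therefore given below by exonic and by whole length. *Fam19a4* and *Fam19a5* overlap no other annotated gene. *Fam19a1* overlaps *1700123L14Rik* and *Fam19a3* overlaps *Ppm1j*, each on the opposite strand and with 0 reads in the 10 libraries. *Fam19a2* overlaps *Gm22958*, *Gm47801* and *Gm19169* on its own strand, *Fam19a1* also overlaps *Gm22971* and *Gm26011*, and *Fam19a3* overlaps *Gm43584*. These 6 genes have no row in the table, so reads of *Fam19a2* cannot be told apart from reads of the 3 small genes within it.

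*Fam19a2*, a secreted ligand that has been linked to the survival of neurons and to memory in mice, was the member with by far the most reads. Across animals 1 to 5, *Fezf2+ve* IT-PNs gave 10, 5, 4, 1932 and 13707 of its reads and *Fezf2−ve* IT-PNs gave 18, 8, 3, 12 and 10. *Fezf2+ve* libraries 4 and 5 were high, whereas *Fezf2+ve* libraries 1 to 3 lay within the range of the *Fezf2−ve* libraries, so the types overlapped. On the CPM scale the *Fezf2+ve* libraries held 84.6, 46.4, 33.9, 12745 and 67396, and the *Fezf2−ve* libraries 107, 89.7, 17.8, 56.8 and 45.9.

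In *Fezf2+ve* library 5, *Fam19a2* was the gene with the most reads of all, at 6.74% of the library (95% Clopper-Pearson interval 6.63 to 6.85%). It ranked 17 by reads in *Fezf2+ve* library 4, where it held 1.27% (1.22 to 1.33%). In the other 8 libraries its rank lay between 438 and 2879. Over all 10 libraries only 4 genes had more reads than its 15709.

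**Figure D1:**
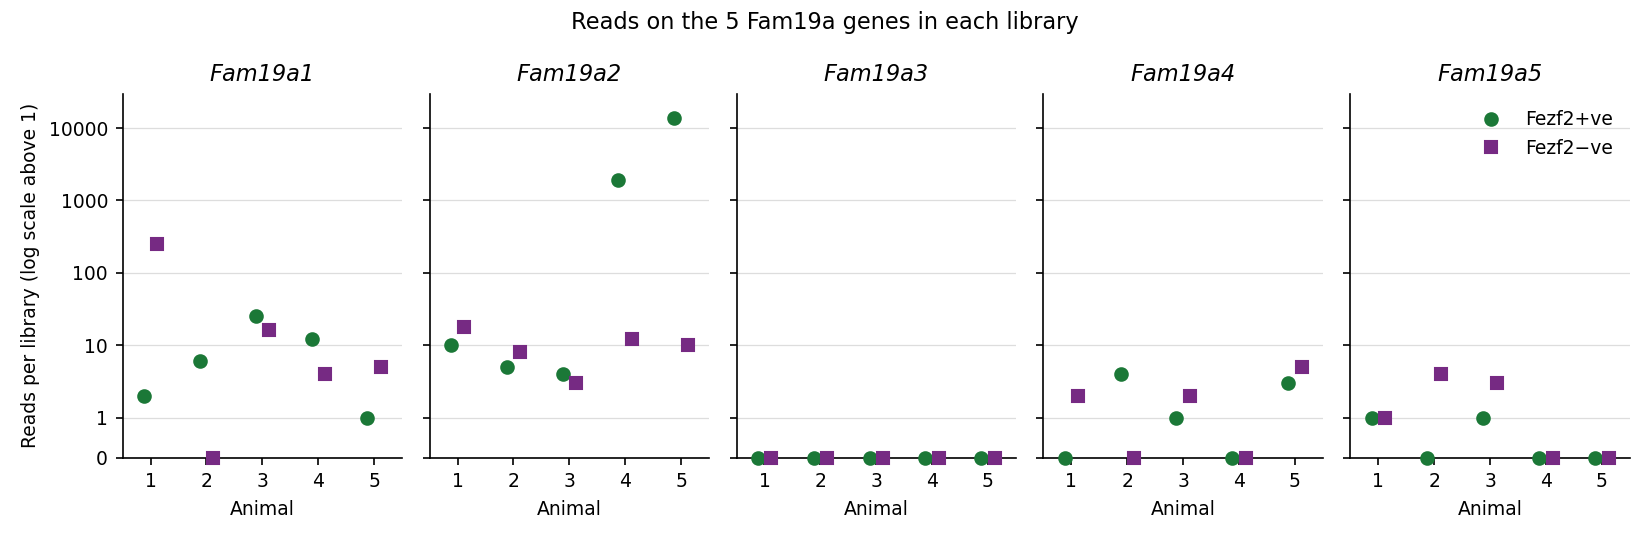
Reads counted on each *Fam19a* gene (1 panel per gene) in the *Fezf2+ve* (green circles) and *Fezf2−ve* (purple squares) library of animals 1 to 5, on an axis that is logarithmic above 1 read and linear below. *Fam19a2* reached 1932 and 13707 reads in *Fezf2+ve* libraries 4 and 5 and 3 to 18 reads in the other 8 libraries, *Fam19a1* reached 247 reads in *Fezf2−ve* library 1, and *Fam19a3* stayed at 0 throughout.

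The median level of *Fam19a2* was 84.6 CPM in *Fezf2+ve* and 56.8 CPM in *Fezf2−ve* libraries, while the mean was 16061 and 63.5 CPM. As log2(CPM + 1) normalized by TMM (trimmed mean of M-values, a scaling for library composition), the mean level (± SD over 5 libraries) was 9.42 ± 5.54 for *Fezf2+ve* and 5.80 ± 1.07 for *Fezf2−ve* IT-PNs. Within animals, the level of the *Fezf2+ve* library minus that of the *Fezf2−ve* library was -0.15, -1.05, 0.88, 7.92 and 10.54 for animals 1 to 5. It was thus higher in *Fezf2+ve* IT-PNs in 3 of 5 animals, and by more than 1 log2 unit in animals 4 and 5 only. In bulk libraries, more cells with the transcript and more transcript per cell cannot be told apart.

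With the animal as a block, edgeR fitted a log2 fold change of 2.53 (standard error 2.29) for *Fam19a2*, as *Fezf2+ve* over *Fezf2−ve*. The value depended on the animals. Leaving out animal 1, 2, 3, 4 or 5 gave 4.59, 4.71, 4.11, 1.04 and 0.97, and with both animals 4 and 5 left out, an alternative chosen after seeing the data, it was -0.19 (standard error 0.94). Without the block it was 8.35 (standard error 2.25). Other size factors left it at 2.56, and scaling to library size alone at 2.50, so its sign did not turn with the scaling.

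**Figure D2:**
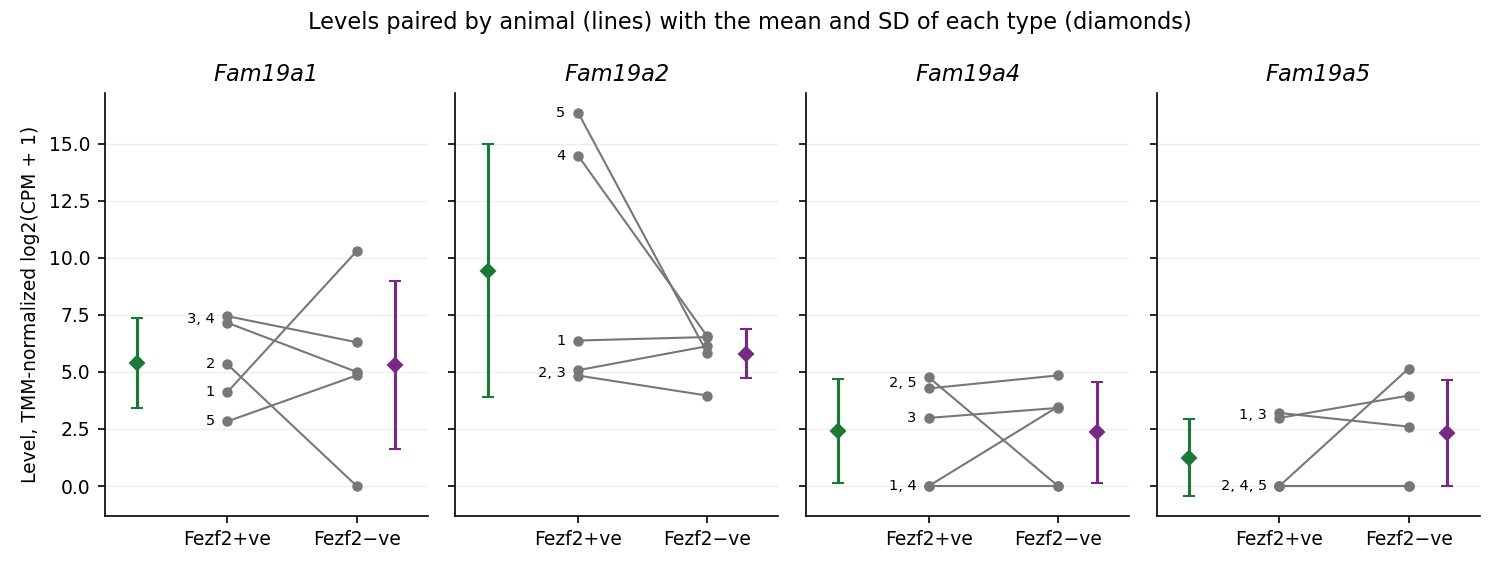
Level of the 4 members with reads, as TMM-normalized log2(CPM + 1), in the *Fezf2+ve* and *Fezf2−ve* library of each animal (grey points, joined within an animal and numbered by animal at the left), beside the mean and SD of each type (diamonds with bars, n = 5). The lines of *Fam19a2* fall steeply for animals 4 and 5 (differences of 7.92 and 10.54) and stay between -1.05 and 0.88 for the others, while those of the other members cross.

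**Figure D3:**
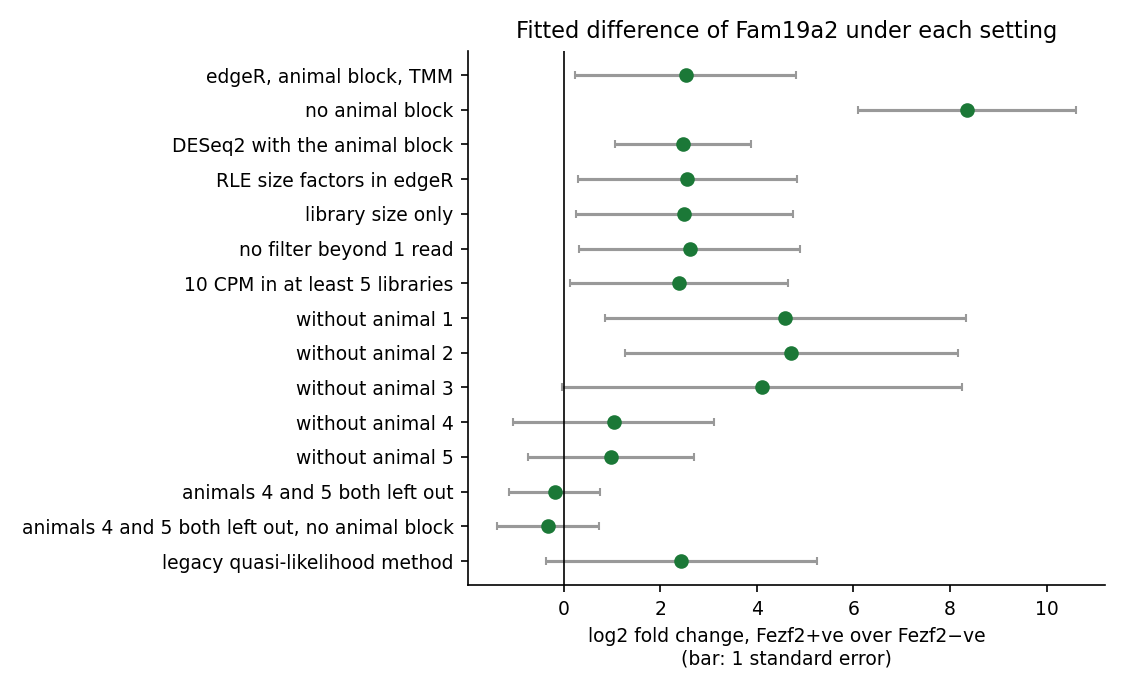
Fitted log2 fold change of *Fam19a2* (horizontal axis, *Fezf2+ve* over *Fezf2−ve* IT-PNs) under each setting (1 row each), where bars are 1 standard error. The value ran from -0.33 with animals 4 and 5 left out and no block to 8.35 with all animals and no block, and was 2.53 with the animal block and TMM.

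*Fam19a1*, a secreted ligand reported to act on the receptor GPR1, had the next most reads of the family, 318 in all. It had 2, 6, 25, 12 and 1 reads in *Fezf2+ve* libraries 1 to 5 and 247, 0, 16, 4 and 5 reads in *Fezf2−ve* libraries 1 to 5. *Fezf2−ve* library 1 was high at 1471 CPM, 77.7% of all reads of the gene (95% Clopper-Pearson interval 72.7 to 82.1%), and the types otherwise overlapped. Its mean level (± SD over 5 libraries) was 5.38 ± 1.97 for *Fezf2+ve* and 5.29 ± 3.68 for *Fezf2−ve* IT-PNs. Within animals 1 to 5 the difference, *Fezf2+ve* minus *Fezf2−ve*, was -6.17, 5.33, 1.14, 2.15 and -2.01, positive in 3 of 5 and spread widely on both sides of 0. The fitted log2 fold change, 0.24 (standard error 1.61), was smaller than its standard error and turned to -1.88 without the block. *Fezf2−ve* library 2, with 0 reads, still allows 33.7 CPM.

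*Fam19a4*, a ligand reported for the receptor FPR1, had 0, 4, 1, 0 and 3 reads in *Fezf2+ve* libraries 1 to 5 and 2, 0, 2, 0 and 5 in *Fezf2−ve* libraries 1 to 5, too few to tell a high library from a low one. Summed over a type this was 8 reads in *Fezf2+ve* and 9 in *Fezf2−ve* libraries, a ratio of CPM of 1.09 (95% exact interval 0.365 to 3.18, from the counts alone). *Fam19a5*, a ligand reported for S1PR2 and LRRC4B, had 1, 0, 1, 0 and 0 reads in *Fezf2+ve* libraries 1 to 5 and 1, 4, 3, 0 and 0 in *Fezf2−ve* libraries 1 to 5. The sums were 2 and 8 reads, a ratio of CPM of 0.306 (0.0316 to 1.53). Such sums leave out the spread between animals, and at this depth *Fam19a4* and *Fam19a5* had too few reads to compare the types. *Fam19a3*, the shortest locus of the family, had 0 reads in all 10 libraries, at a limit of 13.8 to 33.7 CPM that such a count allows.

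Set in order by the median level over the 10 libraries, *Fam19a2* came first with 70.7 CPM, followed by *Fam19a1* with 39.4, *Fam19a4* with 10.2, *Fam19a5* with 2.98 and *Fam19a3* with 0. Per kb of annotated exon these levels were 15.1, 9.34, 1.79, 1.02 and 0 CPM, in the same order. Per kb of the whole locus *Fam19a2* (0.148 CPM) and *Fam19a1* (0.0723 CPM) again led *Fam19a4* (0.0443 CPM) and *Fam19a5* (0.0138 CPM). Neighbours in this order overlapped over the libraries. The 4 members with reads are the 4 with the longest loci. Across the 13997 genes with a read and 1 annotated place, reads had a Spearman correlation of 0.36 with locus span and of 0.28 with exonic length, which is across genes that are not independent replicates.

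*Fam19a2* held 97.9% of the 16054 reads of the family, and had the most reads of the 5 in 6 of the 10 libraries. The family total was 75.7 to 1596 CPM in the other 8 libraries, against 12824 and 67416 CPM in *Fezf2+ve* libraries 4 and 5. *Fam19a1* did not follow *Fam19a2* across the libraries, with a Spearman correlation of -0.22 and a Pearson correlation of -0.13 of their levels over the 10 libraries, given as a description.

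Of the 5 members, 4 passed the filter of at least 10 CPM in at least 2 libraries and *Fam19a3* did not. *Fam19a2* reached 10 CPM in all 10 libraries, *Fam19a1* in 8, *Fam19a4* in 5 and *Fam19a5* in 2. With the animal as a block, edgeR called 0 of these 4 members and 0 of 7409 genes (0%) at a Benjamini-Hochberg adjusted p of at most 0.1, and 288 genes (3.89%) had an unadjusted p under 0.05. DESeq2 with the block called 98 of the 1664 genes to which it gave an adjusted p (5.89%) and 0 of the 2 members among them. Without the block, edgeR called 279 genes (3.77%) and 1 of the 4 members, *Fam19a2*. Since the family was chosen on this contrast, nothing is read from these counts.

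The uneven spread of *Fam19a2* over libraries was set beside that of all 334 genes with at least 1000 reads. Its top library held 87.3% of its reads (95% Clopper-Pearson interval 86.7 to 87.8%), against a median of 90.5% over these genes, and 180 of them (53.9%) had a share at least as high. Reads of 1 gene in mainly 1 library were therefore common among genes with this many reads. A gene can reach 1000 reads through 1 library alone, as *Mir6896* did with all of its 1611 reads in *Fezf2−ve* library 5. The filter thus favours such genes, and the share among genes with fewer reads was not tested. Its top 2 libraries together held 99.6%, which 15 of the 334 genes (4.49%) matched or exceeded. For 12 of the 334 genes, *Fam19a2* included, the top 2 libraries were *Fezf2+ve* libraries 4 and 5. Why libraries 4 and 5 held these reads was not tested.

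**Figure D4:**
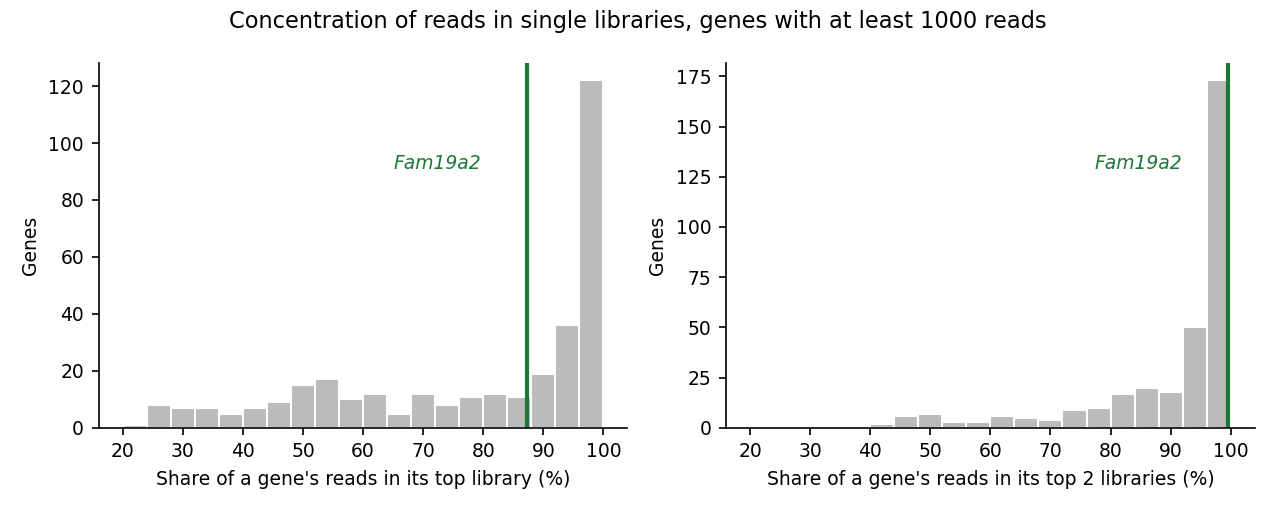
Number of genes (vertical axis) by the share of their reads that fell in their top library (left) or top 2 libraries (right), in percent, for the 334 genes with at least 1000 reads. The green line marks *Fam19a2*, at 87.3% (median of all 90.5%) and 99.6%.

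The genes whose levels were most like those of *Fam19a2* over the 10 libraries, among 1355 with at least 100 reads and a read in at least 5 libraries, were *Pik3r3*, *Maml2*, *Smap1*, *Tmcc1* and *Map7d2* (Spearman correlations of 0.87, 0.85, 0.85, 0.84 and 0.83). All libraries share the depth limits above, and most of these ranks rest on few reads. *Tmcc1* had 1996 of its 2068 reads in *Fezf2+ve* library 5 and 22 in *Fezf2+ve* library 4. *Pik3r3* had 900 of 914 reads in *Fezf2+ve* library 5 but only 2 in *Fezf2+ve* library 4, and *Maml2* had 1241 of 1379 in *Fezf2−ve* library 4. None of the 5 had more than 80 reads in *Fezf2+ve* library 4, where *Fam19a2* had 1932. By Pearson correlation in place of Spearman, 1 of the 5, *Tmcc1*, remained among the top 5. The other 4 were read in both libraries in which *Fam19a2* was high, with 15231 and 858 reads of *Fat3*, 512 and 3191 of *Negr1*, 174 and 260 of *Uso1* and 87 and 88 of *Commd1* in *Fezf2+ve* libraries 4 and 5. Which genes were most like *Fam19a2* thus depended on the measure.

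The reported receptors and binding partners of the family were mostly near or below the limit of detection. Of 7 such genes in the table, 3 were tested and 0 were called in either direction (edgeR quasi-likelihood test, Benjamini-Hochberg), 0 had an unadjusted p under 0.05, and DESeq2 called 0 of the 1 to which it gave an adjusted p and edgeR without the block 0 of 3, beside 0%, 3.89%, 5.89% and 3.77% of all genes. Their values had a median log2 fold change of -1.58 against -0.16 over all 7409 genes, or of -0.53 against -0.11 with genes at 0 in a type set at their bound or left out. *Nrxn3*, a neurexin, had 5302 of the 5379 reads of the list. It had 13, 13, 53, 18 and 19 reads in *Fezf2+ve* libraries 1 to 5 and 47, 19, 192, 4910 and 18 in *Fezf2−ve* libraries 1 to 5. *Fezf2−ve* library 4 alone held 92.6% of them, and the types overlapped (log2 fold change -1.58, standard error 1.39, and adjusted p = 0.998 in the edgeR quasi-likelihood test with Benjamini-Hochberg). *Nrxn2* had 51 reads in all, and its values overlapped between the types. The G protein-coupled receptors were lower still. *Gpr1*, reported for *Fam19a1*, had 15 reads, of which 12 fell in *Fezf2−ve* library 4, and *S1pr2*, reported for *Fam19a5*, had 8 reads, all in *Fezf2−ve* libraries 1 and 3. *Fpr1*, reported for *Fam19a4*, had 2 reads, *Lrrc4b* 1 and *Fpr2* 0.

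*Fezf2+ve* libraries 4 and 5, with 1932 and 13707 reads of *Fam19a2*, had 18 and 19 reads of *Nrxn3* and 2 and 14 of *Nrxn2*. *Nrxn3* was thus not high where *Fam19a2* was high.

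Few of the other proteins that meet neurexins at the synapse were well read, 4 of 23 with at least 100 reads, against 1 of the 7 reported receptors and binding partners. Of the 23 listed neurexin ligands and partners in the table, 17 had a read and 12 were tested, of which 0 were called (edgeR quasi-likelihood test, Benjamini-Hochberg) and 0 had an unadjusted p under 0.05, while DESeq2 called 0 of the 4 with its adjusted p and edgeR without the block 1, beside 0%, 3.89%, 5.89% and 3.77% of all genes. Their median log2 fold change was 0.66 against -0.16 over all genes, or 0.78 against -0.11 with genes at 0 in a type at their bound or left out. *Nlgn1*, a postsynaptic neuroligin, had 5146 reads, of which 63.4% lay in *Fezf2−ve* library 4. *Adgrl3*, a latrophilin, had 4128 reads, with 1680 and 1992 in *Fezf2−ve* libraries 1 and 3. *Cask*, a cytoplasmic scaffold of neurexins, had 39 reads in *Fezf2+ve* and 3076 in *Fezf2−ve* libraries and was lower in *Fezf2+ve* IT-PNs of 5 of 5 animals, but *Fezf2−ve* library 5 held 93.1% of the reads. The edgeR quasi-likelihood test gave it a log2 fold change of -2.59 with a standard error of 1.39 and a Benjamini-Hochberg adjusted p = 0.998 with the block, and a call without the block (adjusted p = 0.0931). *Lrrtm4*, a postsynaptic neurexin ligand, had 308 reads, 59.4% of them in *Fezf2+ve* library 1. Like *Fam19a2*, each of these genes had its reads heaped in 1 or a few libraries, but not in the same ones.

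Of 34 other secreted neuronal ligands, 14 had no read in any library, among them *Bdnf*, *Ntf3* and *Vip*, and 13 were tested, of which 0 were called (edgeR quasi-likelihood test, Benjamini-Hochberg) and 0 had an unadjusted p under 0.05, while DESeq2 called 1 of the 3 with its adjusted p and edgeR without the block 2, beside the same shares of all genes (0%, 3.89%, 5.89% and 3.77%). The median log2 fold change of the list was 0.73 against -0.16 over all genes, or 0.56 against -0.11 with genes at 0 in a type at their bound or left out. *Fam19a2* exceeded the summed level of this list in *Fezf2+ve* libraries 4 and 5 only (12745 against 5178 CPM and 67396 against 3914 CPM). In the other 8 libraries the list summed to 266 to 5548 CPM and *Fam19a2* lay at 17.8 to 107 CPM. *Nrg1*, a neuregulin ligand of ErbB receptors, had 4, 8, 578, 750 and 1 reads in *Fezf2+ve* libraries 1 to 5 and 19 in the *Fezf2−ve* libraries together. It was high in *Fezf2+ve* library 4, as *Fam19a2* was, but at 1 read in *Fezf2+ve* library 5. The edgeR quasi-likelihood test gave *Nrg1* a log2 fold change of 5.13 with a standard error of 2.47 and a Benjamini-Hochberg adjusted p = 0.998, and it was called by DESeq2 with the block (adjusted p = 0.0887) and by edgeR without it (adjusted p = 0.0931). *Spock2*, a secreted proteoglycan, had 353 of its 374 reads in *Fezf2+ve* library 5, as *Fam19a2* did, and 2 in *Fezf2+ve* library 4, and was called by edgeR without the block only (quasi-likelihood test, Benjamini-Hochberg adjusted p = 0.0972). *Nrg3* had 423 reads in *Fezf2+ve* library 5 and 637 in *Fezf2−ve* library 4. *Nrg2* had 60 reads in all, 43 in *Fezf2+ve* and 17 in *Fezf2−ve* libraries. These were 5, 6, 21, 3 and 8 reads in *Fezf2+ve* libraries 1 to 5 and 4, 2, 3, 0 and 8 in *Fezf2−ve* libraries 1 to 5. The normalized level of *Nrg2* was higher in *Fezf2+ve* IT-PNs of 5 of 5 animals, but in animal 5 the reads were equal and only the scaling separated them. Its log2 fold change was 1.75 with a standard error of 1.17 (edgeR quasi-likelihood test, Benjamini-Hochberg adjusted p = 0.998).

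The cell type named by the labels was checked against lists of marker genes. *Fezf2* itself had 1 read, in *Fezf2+ve* library 5, and the layer 5 markers *Bcl11b* and *Crym* had 1 and 0. By RT-PCR, which was not examined here, the study reports a *Fezf2* product in its sorted *Fezf2+ve* samples and none in the *Fezf2−ve* ones. Of 12 genes of glutamatergic projection neurons, 11 had a read, with *Rorb* (728 reads over the 10 libraries), *Camk2a* (588), *Grin2b* (555) and *Gria2* (100) the most read. *Fezf2−ve* library 3 alone held 646 of the *Rorb* and 529 of the *Camk2a* reads, *Fezf2+ve* library 5 held 435 of the *Grin2b* reads and *Fezf2+ve* library 2 held 64 of the *Gria2* reads. *Tbr1* had 0 reads, *Neurod2* and *Neurod6* 2 each and *Slc17a7*, the vesicular glutamate transporter, 11. The summed level of this list was 220 to 2291 CPM in *Fezf2+ve* and 135 to 7237 CPM in *Fezf2−ve* libraries. Some markers of projection neurons were thus near the limit of detection, and the 4 most read had their reads mainly in 1 library each. In *Fezf2+ve* libraries 4 and 5 the list summed to 343 and 2291 CPM, against 12745 and 67396 CPM of *Fam19a2*. The layer 5 subtype list (15 genes, 13 with a read) summed to 13.2 to 559 CPM in *Fezf2+ve* and 47.3 to 8648 CPM in *Fezf2−ve* libraries, and *Tox* held 2041 of its 2237 reads.

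The summed level of microglial genes did not overlap between the types. All 16 were detected, and the sum was 79.2 to 279 CPM in *Fezf2+ve* and 2120 to 7522 CPM in *Fezf2−ve* libraries, with *Ctss* the most abundant (10 reads against 807). Of the 16, 12 had an unadjusted p under 0.05, all lower in *Fezf2+ve*, and 0 were called by edgeR with the block (quasi-likelihood test, Benjamini-Hochberg), whereas DESeq2 called 11 of the 12 with its adjusted p and edgeR without the block 11. Over all genes these shares were 3.89%, 0%, 5.89% and 3.77%. Single genes such as *C1qc* and *Itgam* did overlap, *C1qc* with 9 reads in *Fezf2+ve* library 1 and 7 in *Fezf2−ve* library 5. By library, the sum was 279, 195, 102, 79.2 and 143 CPM in *Fezf2+ve* libraries 1 to 5 and 7486, 5531, 7522, 2120 and 4046 CPM in *Fezf2−ve* libraries 1 to 5, and it did not separate *Fezf2+ve* libraries 4 and 5 from the other *Fezf2+ve* libraries. Its part in the values of the *Fam19a* genes was not tested.

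The remaining lists overlapped between the types. Oligodendrocyte precursor genes (10 of 10 with a read, *Pcdh15* the most abundant) summed to 2045 to 6008 CPM in *Fezf2+ve* and 1324 to 16573 CPM in *Fezf2−ve* libraries, and oligodendrocyte genes (8 of 9, *Mbp*) to 85.8 to 4125 and 80.4 to 935 CPM. Astrocyte genes (11 of 12, *Slc1a2*, with *Gfap* at 0) summed to 838 to 8008 and 294 to 3941 CPM. GABAergic interneuron genes (7 of 12, *Adarb2*, with *Slc32a1* and *Pvalb* at 0) summed to 72.6 to 1800 and 75.7 to 5291 CPM, and endothelial and mural genes (9 of 10, *Flt1*) to 8.46 to 92.9 and 23.7 to 68.9 CPM. The part of these cell types in the reads of *Fam19a2* was not tested.

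**Figure D5:**
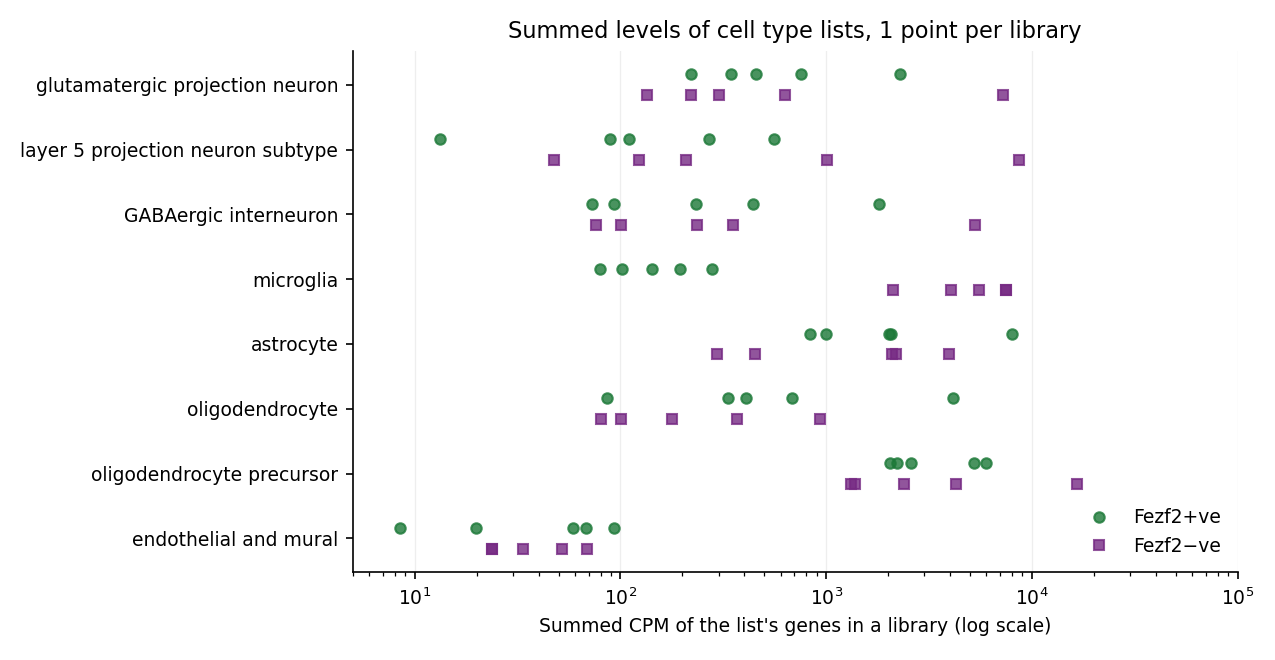
Summed CPM (horizontal axis, log scale) of the genes of 8 cell type lists in each *Fezf2+ve* (green circles) and *Fezf2−ve* (purple squares) library, 1 point per library. The microglial list lies at 79.2 to 279 CPM in *Fezf2+ve* and at 2120 to 7522 CPM in *Fezf2−ve* libraries, and the other lists overlap.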

How the data were processed

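By the submitters' notes, bcl2fastq 1.8.4 made the read files, TopHat2 2.1.1 aligned the trimmed reads to mm10, and bedtools 2.26.0 (multiCov) counted them on RefFlat genes, a read on every gene that it overlaps. Whether the strand was used is not given in the sources used here. The deposited tables hold these counts, without normalization, for genes and for ERCC spike-in RNAs. The comparison table of the authors (DESeq2 1.10.1, R 3.2.5), which holds means, log2 fold changes, standard errors and p-values, was not used.

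The members and lists were chosen with earlier results of these data known. The genes that reached 10 CPM in 2 or more libraries (7409 of 24453) were fitted with the quasi-likelihood test of edgeR 4.0.16 in R 4.3.3 (TMM, library sizes of the kept genes, legacy option off, settled after both options had been run), with the animal as a block, on the whole table. Standard errors were calculated back from the F statistic. Genes with a Benjamini-Hochberg adjusted p of at most 0.1 were called. Alternatives were no block, DESeq2 1.42.0 with the block, other size factors, library size only, other filters, Pearson correlation, a pseudocount of 5 and leaving out each animal. Leaving out animals 4 and 5 together, the legacy option and the depth test without each animal were chosen after seeing the data. The fits were tested on simulated data. Python 3.11.15, numpy 2.4.6, pandas 2.3.3, scipy 1.17.1 and matplotlib 3.10.9 did the rest.

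The pairing comes from the labels, by which the cells of 1 animal were divided into both types, and from the methods, which number the animals. Deviations from the type means correlated at 0.0291 on average between libraries of 1 animal (-0.0267 to 0.097, 5 pairs) and at -0.00727 between animals (20 pairs).

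Named genes are the members, up to 4 genes with the most reads in each list and any called gene of it, the 5 genes most like *Fam19a2*, the same by Pearson, genes that overlap a member, and *Fezf2*. Other list genes, named for low counts or overlap, were chosen after their values were seen. Of the receptor and oligodendrocyte lists, 1 gene each is not reported here and is in none of their counts and sums. Positions are those of GENCODE M21.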

Additional observations from a re-analysis of the deposited data

Results flagged for a closer look

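In 14 sets of 5 libraries of 1 type, the highest and the lowest value were compared with the nearest of the others, which chance alone flags in about 1 of 20 sets. On the CPM scale this set apart *Fam19a2* in *Fezf2+ve* library 5 (67396 CPM), although *Fezf2+ve* library 4 was also far above the rest, and *Fam19a1* in *Fezf2−ve* library 1 (1471 CPM). On the log2 level neither was set apart (gap over range 0.164 and 0.388, where more than 0.71 is needed), so both rest on the CPM scale, and for genes chosen on these data they are a description. Reads on ERCC spike-in RNAs, as a share of the reads on these RNAs and genes, stood out in *Fezf2+ve* library 1 (46.7%), a library in which *Fam19a2* had 10 reads. These are values of 1 library each, and their causes were not tested.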

How the results depend on the processing

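Without the replicate block, edgeR called 279 genes in place of 0, and DESeq2 with the animal paired as a block called 98. Genes of the partner and ligand lists called were 3 without the block and 1 with DESeq2, in place of 0. Under the other 12 alternatives, the 5 fits without 1 animal included, both counts stayed at 0. The log2 fold change of *Fam19a2* was 8.35 without the block in place of 2.53 with it, and lay between 0.97 and 4.71 when any 1 animal was left out. It turned negative with animals 4 and 5 both left out (-0.19 with the block, -0.33 without it), alternatives chosen after seeing the data. The legacy option gave 2.44 and 0 calls. The log2 fold change of *Fam19a1* changed its sign in 5 of 14 alternatives (-2.55 to 1.28) and that of *Fam19a4* in 6 of 14 (-1.04 to 0.55). That of *Fam19a5* stayed below 0 in the 11 it could be fitted in (-2.17 to -0.80). The difference in library depth was between -43640 and -24070 reads with each animal left out. The pseudocount of 5 moved no mean level of a member with reads by more than 1 SD. The cause of these changes was not tested.

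With 89138 to 217738 reads per library, a count of 0 still allows 13.8 to 33.7 CPM. *Fam19a3* had no read, *Fam19a4* and *Fam19a5* rest on 17 and 10 reads and most receptors on under 20, and *Fam19a1* and *Fam19a2* rest on under 30 reads in most libraries. The size of difference that such counts can show was not tested. No measurement of the *Fam19a* transcripts other than these libraries was used.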
